A study of Mus musculus with 157 samples.

Results

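The comparison set the form of RNA polymerase II (Pol II) phosphorylated at serine 2, Ser2p, over gene bodies after 48 h of retinoic acid (RA) beside the same measurement after 6 h. Its members were the 6 Ser2p libraries whose labels gave these times, 3 at 48 h (replicates 1, 2 and 3) and 3 at 6 h (replicates 1, 3 and 4), of 157 samples in the series. No untreated library entered it. The cells were E14, a mouse embryonic stem cell line with no genetic change given in the labels, kept on gelatin with serum and leukaemia inhibitory factor (LIF). Both groups had received 1 µM RA, for 48 h and for 6 h. Chromatin was crosslinked, immunoprecipitated with an antibody to Ser2p and sequenced. The series concerns promoter contacts while developmental genes are activated, and this contrast asks which genes gained or lost elongating polymerase between the early and the later response to RA.

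The largest subunit of Pol II ends in a repeated heptapeptide whose serines are phosphorylated in turn as the enzyme moves along a gene. Serine 5 is marked at the promoter. Serine 2 is marked, mainly by the kinase CDK9 and its relatives, as the polymerase leaves its pause and elongates, so Ser2p accumulates along transcribed genes towards their 3′ ends. RA is a vitamin A derivative that binds nuclear receptors and takes embryonic stem cells out of pluripotency. ChIP-seq does not read strand, so genes that overlap cannot be told apart, and isoforms of a gene share most of their reads. In these bulk cells, fewer cells with an active gene and less Ser2p per cell cannot be told apart either.

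The 48 h libraries held 19261078 to 20955729 reads over gene bodies and the 6 h libraries 21815537 to 28745658. Libraries correlated at 0.986 to 0.994 within 48 h and 0.994 to 0.995 within 6 h, and at 0.984 to 0.989 between the times. The libraries differed in how far strongly occupied genes stood above the rest. The 99th percentile of the deposited FPKM (fragments scaled to the length of the gene body and to the size of the library) was 6.69, 10.2 and 7.68 times the median in 48 h replicates 1, 2 and 3, against 9.23, 10.1 and 7.84 times in 6 h replicates 1, 3 and 4. Replicate 2 at 48 h therefore stood apart from the other 48 h libraries. Among genes at 8 FPKM or more, the median log2 difference from the 6 h mean was -0.59, 0.05 and -0.41 in the 3 replicates at 48 h. From 0.5 to 1 FPKM the order was reversed, at 0.07, -0.06 and 0.04. The effect of this spread on the results was not tested as a cause. Beside many of the lists, counts are given with single libraries left out or with a scaling that removes the trend with level. A gene of another lineage also had a level near that of the median gene, and 1077 genes tested lay lower, below 0.5 FPKM. Col1a1, a fibroblast collagen gene, had a mean of 0.745 FPKM at 48 h and 0.833 FPKM at 6 h, close to the median gene (0.928 and 0.948 FPKM). No input library was used here, so a level near 1 FPKM includes background that was not measured.

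Of 21559 genes tested, Ser2p was called higher at 48 h in 562 (2.61%) and lower in 777 (3.6%) at an adjusted p below 0.05 by edgeR's quasi-likelihood test with Benjamini-Hochberg adjustment. Counted as transcripts, 867 of 31512 were higher (2.75%) and 1200 lower (3.81%), and these 2067 transcripts had 1656 distinct sets of counts. Most changes were small: 183 of the genes called higher and 282 of those called lower reached 1.5-fold (0.849% and 1.31% of all genes tested), and 63 and 69 reached 2-fold. Over transcripts, 0.844% rose and 1.31% fell by at least 1.5-fold. In all 562 and 777 called genes the 48 h and 6 h libraries did not overlap, as in 5611 of all 21559 genes tested. Genes called higher had a median length of 48.1 kb, genes called lower 20.3 kb, and all genes tested 18.3 kb. With no scaling beyond the library total the split was 681 transcripts higher and 1604 lower, and with a scaling that depends on level it was 3491 higher and 2915 lower. Leaving out 48 h replicate 2 gave 2880 and 3528. Leaving out 48 h replicate 3 gave 258 and 269, and 48 h replicate 1 gave 968 and 884. Of the 6 h libraries, replicate 1 gave 212 and 289 when left out, replicate 3 gave 301 and 472 and replicate 4 gave 365 and 552. No called transcript changed sign in any of these. Among transcripts tested here, the authors' deposited table of the same contrast held 890 higher and 1344 lower at the same threshold. Of these, 603 and 894 were also called here. It gave no adjusted p for 10542 transcripts, those of Hoxb2, Utf1, Fgf4, Sox4 and Mylpf among them. By the authors' test Egr1 (log2 change 0.28, adjusted p = 0.15), Actb (0.3, 0.198) and Sox2 (-0.48, 0.0687), called here, missed the threshold. The authors' log2 changes were smaller in size for these genes, as for Fosb (1.04 beside 2.44 here) and Rab19 (-0.78 beside -1.75 here). For Egr1 the value here was 1.73. Why the sizes differ was not tested, and they may not be on the same scale.

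**Figure D1:**
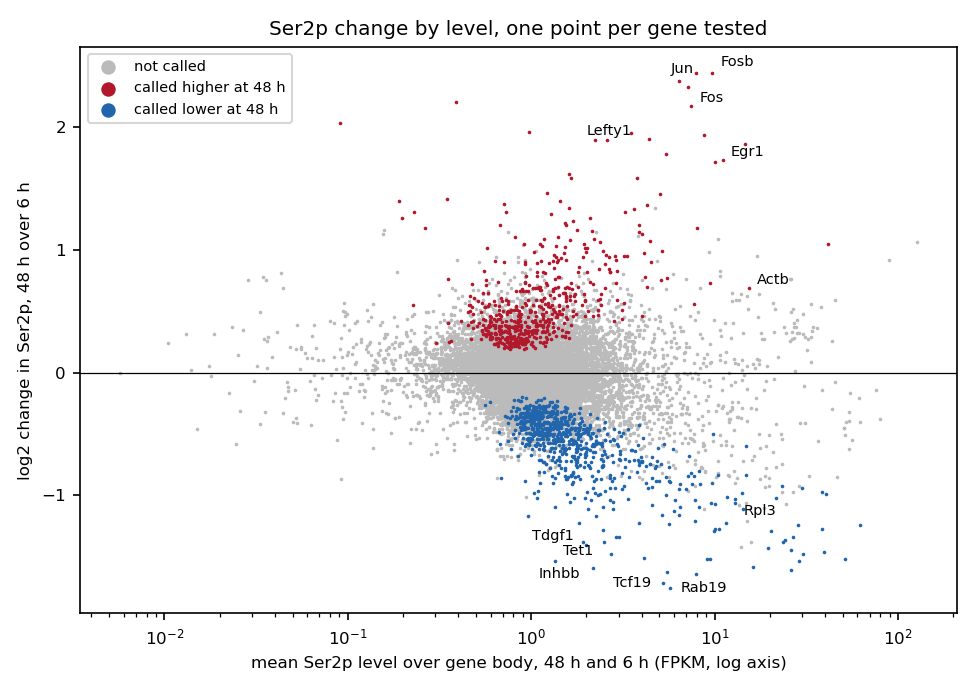
Each point is 1 of 21559 genes, with its mean Ser2p level at 48 h and 6 h on the x axis (FPKM, log axis) and its log2 change, 48 h over 6 h, on the y axis. Fosb, Jun and Fos stand above 2 on the y axis, and Rab19, Tcf19 and Tet1 are among the largest falls.

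Leaving aside predicted genes and genes of low count, the largest gains of Ser2p were in immediate-early genes, which encode transcription factors and phosphatases that cells switch on within minutes of a stimulus without new protein synthesis. Of 19 measured, 10 rose and none fell, beside 2.61% higher and 3.6% lower over all genes tested. Those shares stand beside each list below. The median log2 change of the 19 was 0.59 against 0.00 over all genes tested. The 3 largest of these rises were in genes of the AP-1 transcription factor, and their promoters are printed here because the response of such genes is read through elements near the start site. The sequences cover 300 bases, most of them upstream of the annotated start and ending shortly after it, from RefSeq on GRCm38.p6 (mm10). Srf and Vcl, the serum response factor gene and its target vinculin, were added after their values were seen, as the 2 called members of a neighbouring list that hold a CArG box, the element bound by serum response factor. Capitals mark the CArG box, in Srf and Vcl, and the AP-1 or CREB type element TGACNTCA, in Jun.

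Fosb (chr7:19309996-19310295, minus strand): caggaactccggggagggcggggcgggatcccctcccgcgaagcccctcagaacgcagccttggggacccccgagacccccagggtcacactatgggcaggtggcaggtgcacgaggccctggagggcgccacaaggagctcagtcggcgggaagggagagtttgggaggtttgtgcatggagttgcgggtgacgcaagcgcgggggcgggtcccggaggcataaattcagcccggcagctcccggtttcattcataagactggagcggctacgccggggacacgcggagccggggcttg

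Jun (chr4:95052173-95052472, minus strand): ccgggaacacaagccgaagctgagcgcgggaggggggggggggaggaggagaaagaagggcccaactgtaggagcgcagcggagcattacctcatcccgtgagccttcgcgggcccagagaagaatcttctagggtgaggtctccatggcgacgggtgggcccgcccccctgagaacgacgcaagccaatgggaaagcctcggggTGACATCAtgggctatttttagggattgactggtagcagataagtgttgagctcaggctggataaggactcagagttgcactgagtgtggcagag

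Fos (chr12:85473640-85473939, plus strand): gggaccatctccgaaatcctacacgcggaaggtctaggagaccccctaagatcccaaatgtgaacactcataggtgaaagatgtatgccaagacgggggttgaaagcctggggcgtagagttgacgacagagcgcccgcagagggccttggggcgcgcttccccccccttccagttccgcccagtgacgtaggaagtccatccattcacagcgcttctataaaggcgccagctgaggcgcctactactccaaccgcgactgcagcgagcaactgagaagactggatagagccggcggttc

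Srf (chr17:46556113-46556412, minus strand): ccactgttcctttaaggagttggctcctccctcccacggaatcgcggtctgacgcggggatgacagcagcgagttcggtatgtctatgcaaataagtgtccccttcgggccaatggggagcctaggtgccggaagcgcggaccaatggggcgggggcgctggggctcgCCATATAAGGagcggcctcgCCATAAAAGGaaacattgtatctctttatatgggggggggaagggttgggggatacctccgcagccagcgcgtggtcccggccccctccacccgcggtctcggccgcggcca

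Vcl (chr14:20929148-20929447, plus strand): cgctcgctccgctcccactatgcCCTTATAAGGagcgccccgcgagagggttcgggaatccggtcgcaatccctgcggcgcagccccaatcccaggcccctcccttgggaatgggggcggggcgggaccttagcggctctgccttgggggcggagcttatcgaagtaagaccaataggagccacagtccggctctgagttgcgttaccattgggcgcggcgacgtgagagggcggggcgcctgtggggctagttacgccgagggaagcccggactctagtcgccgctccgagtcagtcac

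Both strands were searched. A CArG box was in the window of 1 of the 15 immediate-early genes matched in the promoter table, Egr2, which was not called. It was in 5 of 13 matched genes of the serum response and YAP list, of which Srf and Vcl were called and Actg1, Myl9 and Cnn2 were not, and in 1.63% of all 32851 promoters. TGACNTCA was in 4 of the 15 immediate-early genes, Jun, Dusp1, Klf6 and Btg2, all called higher, and in 8.83% of all promoters. The list counts are by gene, over any of its promoters (19 promoters for the 15 immediate-early genes), while the shares are by promoter. These matches describe letters within 300 bases and nothing further, and an element outside that window would not be seen.

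Fosb (chromosome 7, positions 19302696 to 19310118 of mm10) encodes an AP-1 subunit. Its Ser2p level was 18.6, 10.9 and 19.7 FPKM in the 48 h libraries, against 2.50, 3.90 and 2.74 FPKM in the 6 h libraries. The difference was 5.42-fold (log2 change 2.44 ± 0.23 SE, adjusted p = 7.69e-04 by edgeR). The largest changes were chosen so that no 48 h library overlapped a 6 h library. Jun (chromosome 4, 95049036 to 95052222), the partner of Fos proteins in AP-1, had 10.4, 8.43 and 13.1 FPKM at 48 h against 1.53, 2.50 and 2.16 FPKM at 6 h (log2 change 2.37 ± 0.19, adjusted p = 3.66e-04). Fos (chromosome 12, 85473890 to 85477274) had 13.2, 7.16 and 16.4 FPKM at 48 h against 2.81, 2.18 and 3.13 FPKM at 6 h (log2 change 2.17 ± 0.27, adjusted p = 0.00242). In Fosb, Jun, Fos and Egr1 the lowest 48 h value was that of replicate 2, the 48 h library with the strongest enrichment. Egr1, a zinc finger factor of the same response, had 16.8, 10.2 and 24.1 FPKM at 48 h against 4.97, 5.15 and 5.36 FPKM at 6 h (log2 change 1.73 ± 0.25, adjusted p = 0.00402). Btg2, an antiproliferative gene, averaged 5.68 ± 1.22 FPKM at 48 h and 1.90 ± 0.0429 FPKM at 6 h (SD, n = 3 each), a log2 change of 1.58 ± 0.15.

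Jund, Atf3, Klf6, Dusp1 and Fosl2 made up the other members called, with log2 changes of 1.18, 1.16, 1.13, 1.07 and 0.59. The 9 members that were not called lay between -0.30 and 0.35. They included Ier2, which already had a high level at 6 h (12, 12.6 and 11.9 FPKM at 48 h against 11.5, 9.85 and 11.3 FPKM at 6 h), Junb (0.25 ± 0.19) and Fosl1 (-0.30 ± 0.11). Within AP-1, Fosb, Jun, Fos, Jund and Fosl2 rose, while Junb and Fosl1 were not called. The count of called members was 8 without 48 h replicate 3 or without 6 h replicate 1, and 10 without any other library. Over the wider time course Fosb had mean levels of 1.75, 2.76, 4.02, 3.05, 7.97, 16.4 and 15.6 FPKM in untreated cells, then at 2, 4 and 6 h, then at 24, 48 and 72 h of RA, and Jun 1.46, 2.45, 2.09, 2.06, 6.91, 10.7 and 11.2 FPKM. For both genes, the 6 h level was within the range of the early times and the 48 h level close to that at 72 h.

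**Figure D2:**
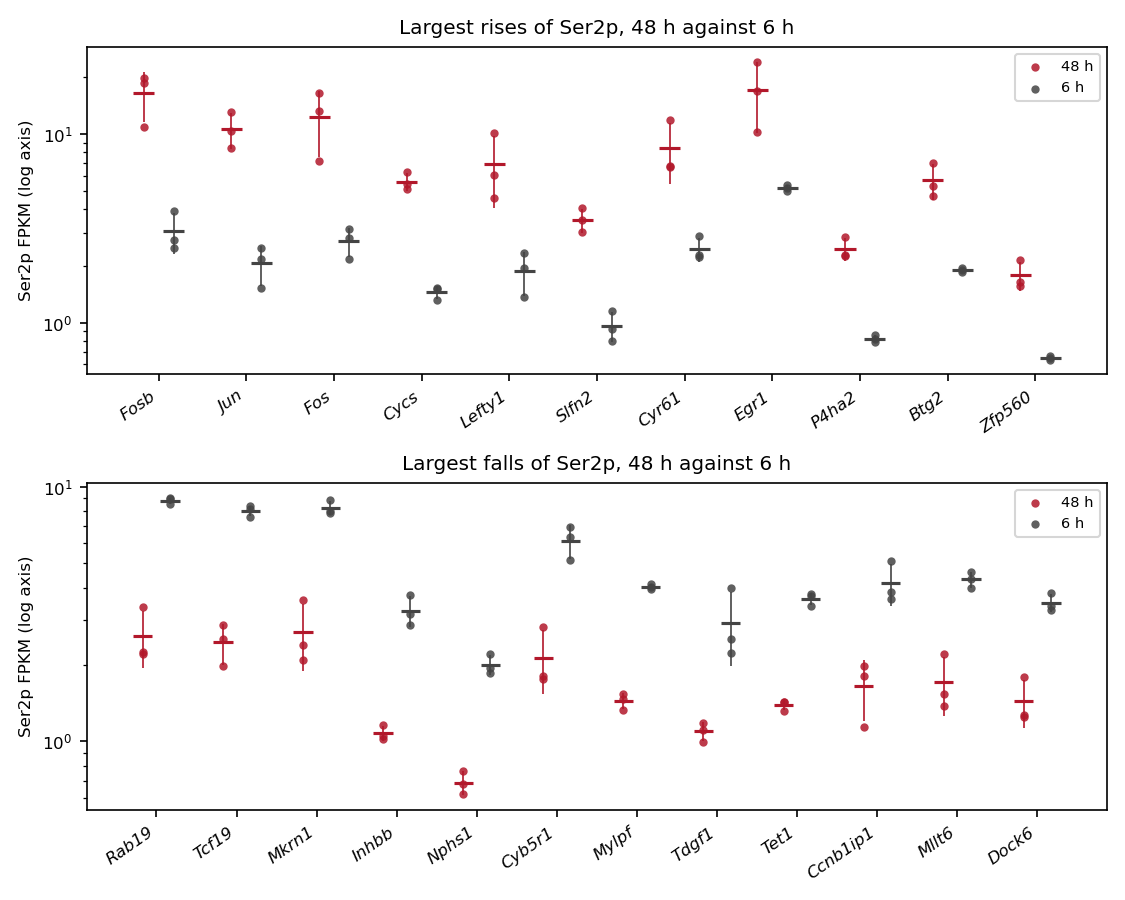
Ser2p level (FPKM, log axis) in each library for the genes with the largest rises (top, 11 shown) and falls (bottom, 12 shown). Points are libraries, 48 h in red and 6 h in dark grey, horizontal lines are means and vertical lines SD (n = 3 each), and the genes were chosen so that no 48 h point overlaps a 6 h point.

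Genes driven by serum response factor and by the YAP coactivator, which couple actin and cell tension to transcription, made up a second group of rises. Of 17 measured, 8 rose and none fell (15 and none with the level-dependent scaling), with a median log2 change of 0.39, and 16 of the 17 had a positive change. Cyr61 (chromosome 3, 145646971 to 145649985), a secreted matrix protein and YAP target, had 6.68, 6.73 and 11.9 FPKM at 48 h against 2.23, 2.88 and 2.27 FPKM at 6 h (1.78 ± 0.23, adjusted p = 0.00269). Replicate 3 was the highest 48 h library. Tpm1, an actin-binding tropomyosin, had 2.86, 5.26 and 5.77 FPKM at 48 h against 1.63, 2.19 and 1.81 FPKM at 6 h (1.31 ± 0.22, adjusted p = 0.00845). Amotl2, a regulator of YAP and itself a target, changed by 1.14 ± 0.12 and Ctgf, a second matrix protein, by 0.78 ± 0.15. Actb, the cytoplasmic actin often taken as a reference gene, had 16.8, 20.2 and 19.9 FPKM at 48 h against 10.8, 12 and 12.5 FPKM at 6 h (0.69 ± 0.09, adjusted p = 0.00254). Flna, Srf and Vcl were the other members called, with log2 changes of 0.54, 0.51 and 0.36. Dropping 48 h replicate 3 left 5 members called, dropping 6 h replicate 1 left 3, dropping 6 h replicate 3 left 5, and a fit of all times left 4. Dropping 48 h replicate 2 gave 11. Actb lost its call in the fit of all times, Tpm1 when 48 h replicate 3 or 6 h replicate 1 was dropped, and Ctgf under 4 of the 16 alternatives.

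Other genes among the largest rises came from separate pathways. Lefty1 (chromosome 1, 180935022 to 180938401), a secreted inhibitor of Nodal, had 4.59, 10.1 and 6.04 FPKM at 48 h against 1.94, 2.35 and 1.36 FPKM at 6 h (1.90 ± 0.29, adjusted p = 0.00488). Replicate 2 was the highest 48 h library. Slfn2, a Schlafen gene of the immune system, changed by 1.89 ± 0.15, P4ha2, a prolyl hydroxylase of collagen, by 1.58 ± 0.10, and Zfp560, a zinc finger gene, by 1.46 ± 0.12. Cycs, which encodes cytochrome c, had 5.40, 6.28 and 5.08 FPKM at 48 h against 1.31, 1.51 and 1.52 FPKM at 6 h (1.95 ± 0.12, adjusted p = 1.27e-04). Cycs has many processed pseudogenes, so the share of its reads that is its own is uncertain.

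Nodal signalling did not move one way. Of 16 pathway genes 2 rose, Lefty1 among them, and 2 fell, Inhbb and Tdgf1, beside 2.61% and 3.6% of all genes tested. The median log2 change was -0.06. Inhbb (chromosome 1, 119415463 to 119422248), a subunit of activin and inhibin, had 1.05, 1.16 and 1.02 FPKM at 48 h against 3.75, 2.86 and 3.16 FPKM at 6 h (-1.59 ± 0.12, adjusted p = 3.13e-04). Tdgf1 (chromosome 9, 110939608 to 110946158), the Cripto co-receptor of Nodal, had 1.11, 1.18 and 0.991 FPKM at 48 h against 3.98, 2.22 and 2.53 FPKM at 6 h (-1.40 ± 0.21, adjusted p = 0.00485). The 48 h levels of both genes were near that of the median gene. The calls of Lefty1, Inhbb and Tdgf1, chosen among the largest changes of the same libraries, held under each of the 16 alternatives run. With the level-dependent scaling, 5 genes of the list rose and 3 fell. Lefty1 had mean levels of 1.29, 2.25, 1.64, 1.88, 9.38, 6.91 and 1.77 FPKM at the same times from 0 to 72 h, so its mean was highest at 24 h, although the 24 h and 48 h libraries overlapped.

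Some pluripotency genes fell, and 3.6% of all genes tested did. Of 12 genes of the general pluripotency list, 5 fell and none rose (median log2 change -0.32), and of 20 naive pluripotency genes, 7 fell and none rose (median -0.37). Pou5f1 (chromosome 17, 35506032 to 35510777), which encodes OCT4, had 1.43, 1.10 and 1.04 FPKM at 48 h against 2.06, 2.08 and 2.26 FPKM at 6 h (-0.83 ± 0.13, adjusted p = 0.00706). Esrrb, an orphan receptor of the naive network, had 1.08, 1.02 and 1.07 FPKM at 48 h against 1.93, 1.56 and 1.88 FPKM at 6 h (-0.75 ± 0.08, adjusted p = 0.00142). Sox2 averaged 2.25 ± 0.221 FPKM at 48 h and 3.99 ± 1.16 FPKM at 6 h (SD, n = 3 each), a log2 change of -0.82 ± 0.20 (adjusted p = 0.0391), and lost its call under 5 of the 16 alternatives. Utf1 (-0.87 ± 0.16), a chromatin protein of stem cells, Tdh (-0.84 ± 0.08), the threonine dehydrogenase of mouse stem cells, Fgf4 (-0.78 ± 0.13), the growth factor that primes them, and Pecam1 (-0.62 ± 0.06) also fell. Utf1 lost its call under 3 and Fgf4 under 1 of the 16 alternatives.

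Other core factors were not called. Nanog had 1.72, 2.16 and 2.57 FPKM at 48 h against 2.24, 2.18 and 2.26 FPKM at 6 h, with the 6 h values inside the range at 48 h (-0.05 ± 0.13, adjusted p = 0.864). Zfp42, the naive marker REX1, changed by -0.35 ± 0.11 (adjusted p = 0.0907), although its 48 h libraries (2.40, 2.62 and 3.32 FPKM) all lay below its 6 h libraries (3.76, 3.46 and 3.47 FPKM). Rif1 and Sall4 had log2 changes of -0.03 and -0.05. The median of the general list was -0.12 when 48 h replicate 1 was dropped and -0.59 when 48 h replicate 2 was. Against the 6 h mean, its median was -0.53, 0.01 and -0.56 in 48 h replicates 1, 2 and 3, with 6 of the 12 genes above that mean in replicate 2. The general list had 3 members called without 48 h replicate 3 or without 6 h replicate 1, and the naive list 3 without 6 h replicate 1. LIF-STAT3 genes gave 2 falls, Bcl3 (-0.90 ± 0.13) and the receptor gene Lifr (-0.43 ± 0.08), and 1 rise, Jak1 (0.23 ± 0.06), among 13. Jak1 lost its call under 7 of the 16 alternatives, DESeq2 among them, and Lifr under 3. With 48 h replicate 2 dropped there were 5 falls.

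**Figure D3:**
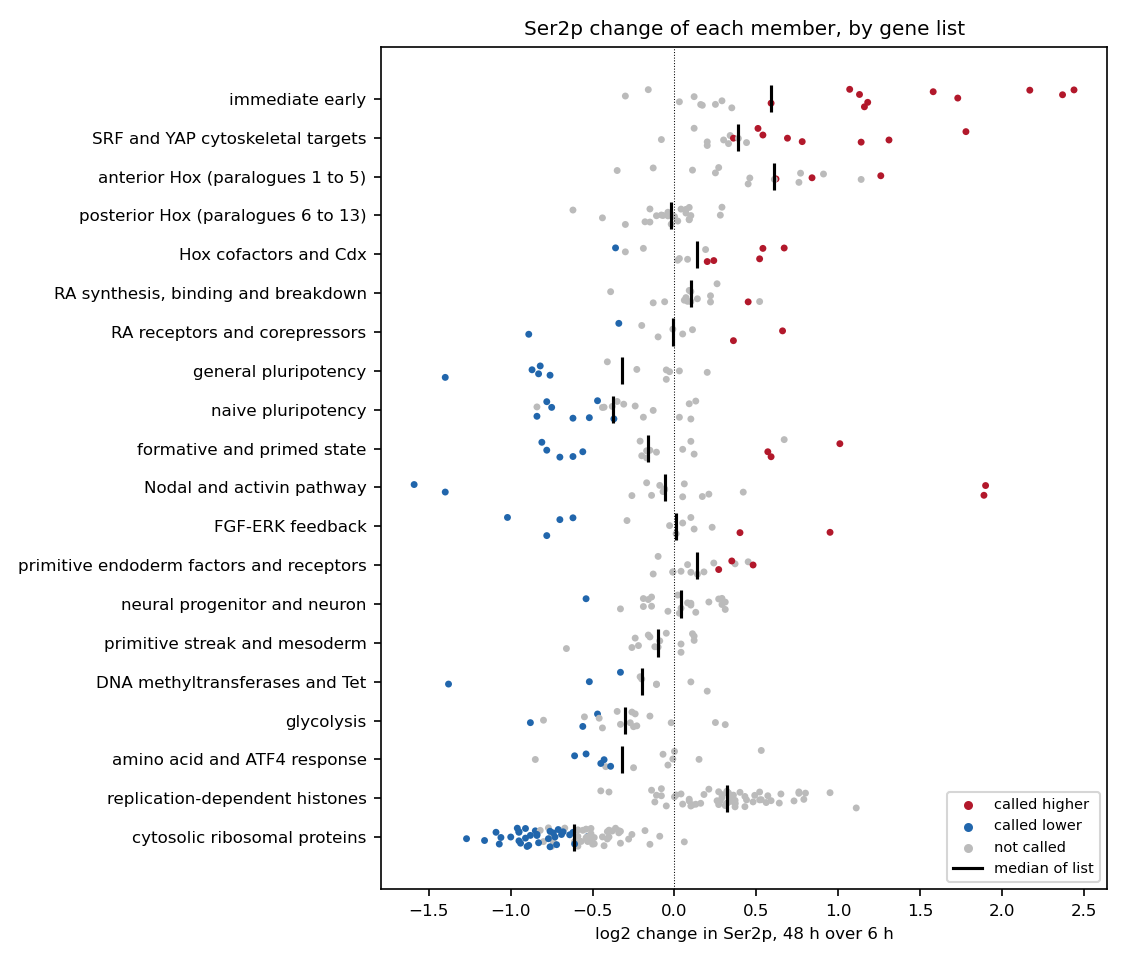
Log2 change in Ser2p, 48 h over 6 h, of every tested member of 20 gene lists. Red points were called higher, blue points lower and grey points not called, and black bars are list medians, which run from 0.61 in anterior Hox genes (0.37 with 48 h replicate 2 dropped) to -0.62 in ribosomal protein genes.

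The largest falls of single genes included a neighbouring pair on chromosome 6. Rab19 (39380709 to 39390666), a small GTPase, had 2.19, 3.35 and 2.24 FPKM at 48 h against 8.53, 8.99 and 8.90 FPKM at 6 h, a 3.37-fold fall (-1.75 ± 0.14, adjusted p = 3.28e-04). Mkrn1 (39397804 to 39423299), a ubiquitin ligase gene 7138 bases away, had 2.08, 3.57 and 2.38 FPKM at 48 h against 8.87, 8.04 and 7.89 FPKM at 6 h (-1.62 ± 0.16, adjusted p = 9.68e-04). Slc37a3, on the other side of Rab19 at 2984 bases, was not called (-0.20 ± 0.06). The mean level of Rab19 was 4.00, 7.93, 9.45, 8.80, 6.73, 2.60 and 2.04 FPKM at the same times from 0 to 72 h, with 4.86 and 3.15 FPKM in the untreated libraries. The 48 h libraries overlapped the untreated ones and lay below the others up to 24 h, and 48 h against 0 h was not tested. Tcf19 (chromosome 17, 35512730 to 35516837), a growth-associated factor, had 1.97, 2.86 and 2.51 FPKM at 48 h against 8.13, 7.62 and 8.35 FPKM at 6 h (-1.71 ± 0.12, adjusted p = 1.87e-04). It lies 1953 bases from Pou5f1 and 212 bases from Cchcr1, both of which also fell, Cchcr1 by 0.71 on the log2 scale. Reads that run past one gene into the next cannot be told apart from those of the neighbour.

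Tet1 (chromosome 10, 62804570 to 62887469), which encodes a dioxygenase that oxidises methylated cytosine, had the smallest adjusted p of the 24 largest changes. Its level was 1.31, 1.43 and 1.43 FPKM at 48 h against 3.78, 3.41 and 3.70 FPKM at 6 h, a 2.60-fold fall (-1.38 ± 0.06, adjusted p = 1.55e-05). Tet2 (-0.52 ± 0.06, adjusted p = 0.00198) and the maintenance methyltransferase Dnmt1 (-0.33 ± 0.08, adjusted p = 0.0320) also fell among 9 such genes, and none rose. Dnmt1 lost its call under 6 of the 16 alternatives, and dropping 48 h replicate 2 gave 5 falls and 1 rise. The mean level of Tet1 was 3.06, 3.75, 3.58, 3.63, 3.25, 1.39 and 1.39 FPKM at the same times from 0 to 72 h. Its 24 h libraries had 3.88 and 2.63 FPKM, both above the 48 h libraries and the lower below all 6 h libraries. When the fall began was not tested. The other large falls were Nphs1 (-1.53 ± 0.10), the nephrin gene, together with its neighbour Kirrel2 (-0.98 ± 0.13), Cyb5r1 (-1.51 ± 0.17), Mylpf (-1.48 ± 0.11), which overlaps Septin1, Ccnb1ip1 (-1.34 ± 0.19), Mllt6 (-1.34 ± 0.15) and Dock6 (-1.28 ± 0.13), which overlaps Angptl8. None of the 24 genes with the largest changes lost its call under any of the 16 alternatives. They were chosen as the largest calls without overlap in the same libraries, so this does not carry over to other calls. Of the 2067 called transcripts, 522 kept their call without 48 h replicate 3 and 501 without 6 h replicate 1.

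Among 76 genes of cytosolic ribosomal proteins, 33 fell, 43 were not called and none rose, beside 3.6% of all genes tested that fell. The median log2 change was -0.62, and 75 of 76 had a negative change. Rpl3 (chromosome 15, 80077781 to 80083406) had 5.78, 10.6 and 8.79 FPKM at 48 h against 18.4, 19.8 and 14.3 FPKM at 6 h (-1.06 ± 0.19, adjusted p = 0.0107). Rpl13a (chromosome 7, 45125563 to 45128745) had 3.91, 8.06 and 5.70 FPKM at 48 h against 15.0, 15.7 and 12.1 FPKM at 6 h (-1.27 ± 0.21, adjusted p = 0.00708). In both genes 48 h replicate 2 was the nearest to the 6 h libraries. Rpl21 (-1.16 ± 0.20) and Rps12 (-1.07 ± 0.18) were other large falls. The summed level of the 76 genes was 263, 465 and 340 FPKM in 48 h replicates 1, 2 and 3, against 572, 646 and 487 FPKM in 6 h replicates 1, 3 and 4.

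The size of this count depended on single libraries. It was 69 with 48 h replicate 2 left out, but 2 with 48 h replicate 3 left out. Leaving out 6 h replicate 1 gave 7, leaving out 6 h replicate 3 gave 8, and a fit shared by all times gave 7. The median change stayed between -0.84 and -0.50 when 1 library was left out. Ribosomal protein genes are among the most strongly occupied, and genes at 8 FPKM or more had a median log2 change of -0.29 as a whole. With a scaling that sets the median change at each level near 0, the list's median was -0.46 and 60 members were called lower. Rpl3 had a mean of 13.4, 18.8, 17.4, 17.5, 18.5, 8.37 and 11 FPKM at the same times from 0 to 72 h. These genes have many processed pseudogenes, so the share of reads that is their own is uncertain.

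**Figure D4:**
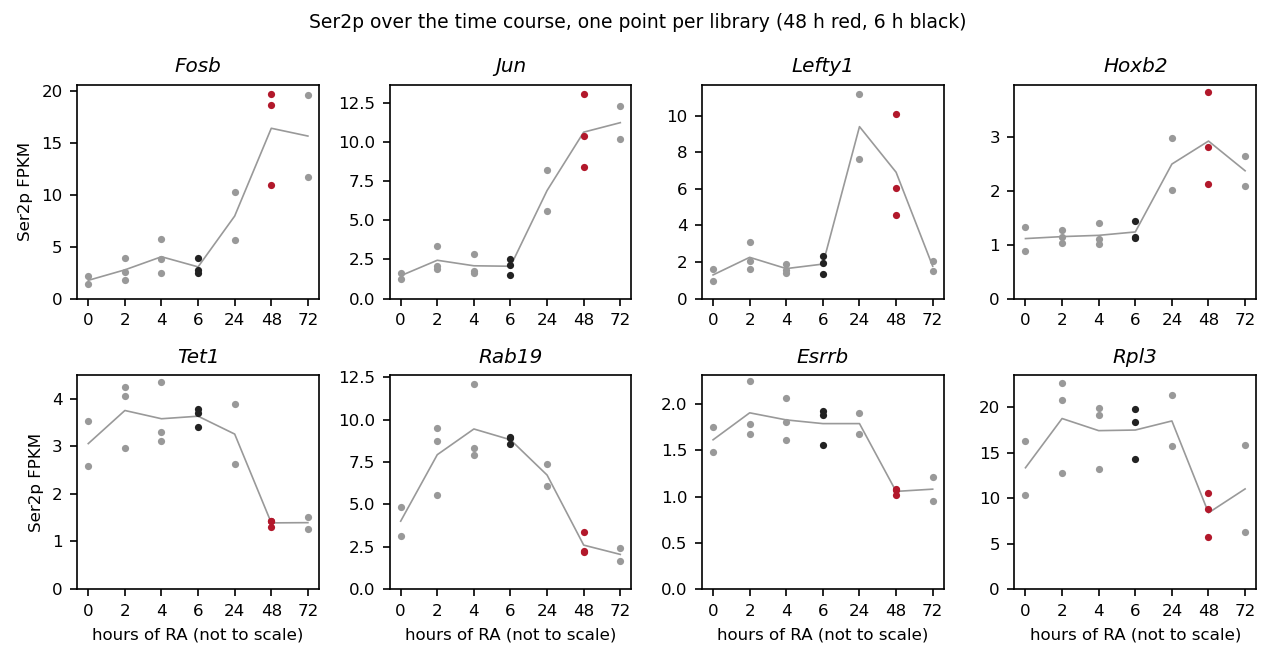
Mean Ser2p level (FPKM, y axis, from 0) from 0 to 72 h of RA for 8 genes, with 1 point per library, 48 h in red and 6 h in black, and the time axis not to scale. By mean, Fosb and Jun are highest at 48 and 72 h and Lefty1 at 24 h, and Tet1, Rab19 and Esrrb are low at 48 and 72 h.

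The anterior Hox genes, RA targets that give the hindbrain its segmental identity, had a median log2 change of 0.61, with 13 of 15 positive, but 3 passed the test. Hoxb2 (chromosome 11, 96351632 to 96354020) had 2.82, 3.84 and 2.14 FPKM at 48 h against 1.12, 1.45 and 1.15 FPKM at 6 h (1.26 ± 0.22, adjusted p = 0.00943). Hoxa3 changed by 0.62 ± 0.16 (adjusted p = 0.0483) and overlaps Hoxa4, Hoxa5 and Hoxa6 in the annotation, and Hoxb2 overlaps Hoxb3os. Hoxb1 had 2.94, 4.69 and 1.67 FPKM at 48 h, a wide spread, against 1.49, 1.49 and 1.30 FPKM at 6 h, and was not called (1.14 ± 0.31, adjusted p = 0.0553). Against the 6 h mean, the list's median was 0.41, 0.89 and 0.18 in 48 h replicates 1, 2 and 3, and the median change was 0.37 when 48 h replicate 2 was dropped. Hoxa3 lost its call under 5 of the 16 alternatives. The count was 1 without 6 h replicate 1, 5 without 48 h replicate 2, 6 with DESeq2 and 9 with the level-dependent scaling. None of 24 posterior Hox genes was called by edgeR (median -0.02), nor in any alternative run, DESeq2 included.

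Some partners of Hox proteins were called as well. Of 12 Hox cofactor and caudal genes, 5 rose and 1 fell, beside 2.61% and 3.6% of all genes tested. Meis1 (0.54 ± 0.06) and Meis2 (0.52 ± 0.07), which rose, are TALE homeobox genes whose products bind DNA with Hox proteins. Pknox2 (0.24 ± 0.06) also rose and its relative Pknox1 fell (-0.36 ± 0.07), but Pknox2 lost its call under 6 and Pknox1 under 4 of the 16 alternatives. Cdx1, a caudal homeobox gene and direct RA target, was not called (-0.30 ± 0.14, adjusted p = 0.26). The count of rises was 5 when 48 h replicate 2 was dropped and 3 when any other library was.

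Of 15 genes of RA metabolism, 1 rose and none fell. This was Aldh1a1, a retinaldehyde dehydrogenase gene (0.45 ± 0.11, adjusted p = 0.0362), and it lost its call under 5 of the 16 alternatives. This list gave 3 rises and 2 falls with 48 h replicate 2 dropped, and dropping any other library gave at most 1 rise. Over all genes tested, 2.61% rose and 3.6% fell. Cyp26a1, which degrades RA and is induced by it, had 2.62, 4.94 and 1.57 FPKM at 48 h against 2.97, 3.29 and 2.49 FPKM at 6 h (0.08 ± 0.31, adjusted p = 0.906). Its 48 h libraries lay on both sides of the 6 h range, and its mean levels were 0.944, 2.22, 2.73, 2.91, 6.36, 3.05 and 1.48 FPKM at the same times from 0 to 72 h. Dhrs3 (0.26 ± 0.23) and Stra6 (-0.06 ± 0.08) were not called. Among 9 receptor and corepressor genes, Rxra (0.66 ± 0.08, adjusted p = 0.00254) and Rarb (0.36 ± 0.06, adjusted p = 0.0106) rose, and Rarg (-0.89 ± 0.08, adjusted p = 7.69e-04) and Ncor1 (-0.34 ± 0.08, adjusted p = 0.0298) fell. Ncor1 lost its call under 6 and Rarb under 3 of the 16 alternatives, while Rxra and Rarg lost theirs under none. Rarg had 1.16, 1.23 and 1.16 FPKM at 48 h against 2.31, 1.98 and 2.32 FPKM at 6 h. Rarb stayed low, at 0.671, 0.591 and 0.623 FPKM at 48 h against 0.486, 0.478 and 0.515 FPKM at 6 h, below the median gene at both times. Genes from 0.5 to 1 FPKM, Rarb and Aldh1a1 among them, had 270 called higher and 116 lower, against 192 and 452 from 1 to 2 FPKM. In both genes replicate 2 was the lowest 48 h library. The effect of level on these calls was not tested as a cause.

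Single signalling genes were called in both directions, beside 2.61% higher and 3.6% lower over all genes tested. Of 13 genes of FGF-ERK feedback, the phosphatases Dusp6 (0.95 ± 0.11, adjusted p = 0.00198) and Dusp4 (0.40 ± 0.09) rose, while Spry4 (-1.02 ± 0.08, adjusted p = 3.67e-04), Fgf4, Etv4 (-0.70 ± 0.11) and Etv5 (-0.62 ± 0.07) fell. Dusp6 had 4.19, 4.11 and 4.34 FPKM at 48 h against 2.06, 2.57 and 1.98 FPKM at 6 h, and Spry4 1.06, 1.12 and 1.20 FPKM at 48 h against 2.42, 2.17 and 2.28 FPKM at 6 h. Dusp4 lost its call under 4 of the 16 alternatives, and the level-dependent scaling gave 5 rises and 5 falls in this list. Of 12 BMP targets, the inhibitor of differentiation genes Id2 (0.99 ± 0.17) and Id3 (0.99 ± 0.25) and the pseudoreceptor gene Bambi (0.55 ± 0.12) rose, and 1 was called without 6 h replicate 1 or without 6 h replicate 3. Among 12 WNT genes only Ccnd1, which encodes cyclin D1, was called (-0.69 ± 0.14), a result for that gene and not for the list. Ccnd1 lost its call under 3 of the 16 alternatives.

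Genes of the formative and primed state were split as well, with 3 rises and 5 falls among 18, beside 2.61% and 3.6% of all genes tested. Sox4 (1.01 ± 0.14, adjusted p = 0.00362), Cdh2 (0.59 ± 0.06), the N-cadherin gene, and Sox11 (0.57 ± 0.13) rose. Foxd3 (-0.81 ± 0.19) and Tead2 (-0.78 ± 0.10) fell, with Etv4 and Etv5. Foxd3 lost its call under 5 of the 16 alternatives, DESeq2 among them, and Sox11 under 4. Dropping replicate 3 of either time left 3 falls. Among 11 genes of the epithelial to mesenchymal transition, Cdh2, Snai1 (0.46 ± 0.11) and Zeb2 (0.27 ± 0.06) rose and Cdh1, the E-cadherin gene (-0.45 ± 0.09), fell, and 1 rise was left when 48 h replicate 3 or any single 6 h library was dropped. Snai1 lost its call under 6 of the 16 alternatives, and Zeb2 and Cdh1 each under 4. Krt18, a simple epithelial keratin, rose (1.08 ± 0.19) and lost its call when 48 h replicate 3 was dropped.

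Markers of later lineages gave small changes or none. As 2.61% of all genes tested rose and 3.6% fell, a single call in such a list is a result for that gene. Of 15 primitive endoderm genes, the endocytic genes Dab2 (0.48 ± 0.09), Cubn (0.35 ± 0.07) and Lrp2 (0.27 ± 0.06) rose, at levels close to that of the median gene. Dropping replicate 3 of either time, or 6 h replicate 1, left none of them called. Their defining factors Gata6 (0.24 ± 0.13) and Sox17 (0.14 ± 0.16) were not called. The basement membrane genes Col4a1 (0.54 ± 0.14) and Lamb1 (0.44 ± 0.08) rose and Nid2 (-0.33 ± 0.08) fell, among 13. None was called when replicate 1 or 3 at 6 h was dropped, and 4 rose and 5 fell when 48 h replicate 2 was. Col4a1 lost its call under 7, Nid2 under 6 and Lamb1 under 2 of the 16 alternatives. Of 21 neural genes, none rose and Stmn2 fell (-0.54 ± 0.08), and Pax6 (0.03 ± 0.10) and Sox1 (0.27 ± 0.15) were not called. None of 15 primitive streak genes and none of 12 fibroblast genes was called by edgeR. With DESeq2 none of either list was called. Dropping 48 h replicate 2 gave 5 rises and 1 fall among the fibroblast genes, and their summed level was 10.8 to 11.7 FPKM at 48 h and 10.0 to 10.5 FPKM at 6 h. Of 12 trophoblast genes only Tfap2c was called (-0.73 ± 0.13).

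Lists of metabolism and DNA replication held falls and no rises, beside 3.6% lower and 2.61% higher over all genes tested. Of 14 amino acid and ATF4 response genes, 5 fell, among them Slc7a5 (-0.54 ± 0.09) and Psat1 (-0.43 ± 0.11), and none was called without 48 h replicate 3 or without 6 h replicate 1. Of 18 glycolysis genes 3 fell, Ldha (-0.88 ± 0.21), Pdk1 (-0.56 ± 0.09) and Aldoa (-0.47 ± 0.12), and of 23 DNA replication genes 4 fell, led by Mcm10 (-0.56 ± 0.08). Dropping 48 h replicate 2 gave 9 and 11 falls in these lists, and dropping 48 h replicate 3 gave 1 in each. Aldoa lost its call under 7 and Ldha under 4 of the 16 alternatives. Among 24 Polycomb subunit genes Yaf2 (0.40 ± 0.07) and Pcgf5 (0.26 ± 0.06) rose and Jarid2 (-0.70 ± 0.10) and Cbx6 (-0.44 ± 0.10) fell. Pcgf5 lost its call under 7 and Cbx6 under 6 of the 16 alternatives. With 48 h replicate 2 dropped there were 7 falls, and dropping 6 h replicate 1 gave 0 rises. Of 30 genes for Pol II pausing and elongation factors, Nelfa (0.97 ± 0.10, adjusted p = 9.96e-04), a subunit of the negative elongation factor, which overlaps Nsd2, and Hexim1 (0.84 ± 0.16), the inhibitor of CDK9, rose. Hexim1 lost its call under 4 of the 16 alternatives. The remaining 28 lay between -0.27 and 0.30. Given the shares over all genes tested, the calls in the Polycomb and pausing lists are results for single genes. The 14 p53 targets had a median of 0.32 with none called by edgeR or DESeq2. Dropping 48 h replicate 1 gave 5 rises, and the level-dependent scaling gave 10.

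Total Pol II, read through its N-terminal domain (NTD) in 3 libraries at each of the same times, was compared to see whether Ser2p moved otherwise than the polymerase itself. In NTD, 599 of 20990 genes were higher (2.85%) and 1202 lower (5.73%). Over transcripts, 2.95% were higher and 6.08% lower, and 1.4% and 3.68% were so by at least 1.5-fold. Of 561 genes with higher Ser2p that were tested in both, 356 were also higher in NTD, which is 63.5% of the Ser2p list and 60.1% of the NTD list. Of 775 with lower Ser2p, 645 were also lower in NTD, 83.2% and 53.8% of the lists, and none moved in opposite directions in either case. The antibodies were used on libraries with the same times and numbers, and whether these shared chromatin is not given in the labels. Tested directly, the Ser2p change minus the NTD change was called for 0 of 31761 transcripts by edgeR, with 504 higher (1.59%) and 487 lower (1.53%) at an unadjusted p below 0.05. DESeq2 called 4 higher and 0 lower, and dropping 48 h replicate 2 gave 11 and 0. Ser2p and NTD libraries of the same time and number deviated together with correlations of 0.58, 0.77 and 0.44 at 48 h (replicates 1, 2 and 3) and 0.08, 0.44 and 0.19 at 6 h (replicates 1, 3 and 4). A fit with these pairs as a block called 186 higher and 17 lower, while the count of 0 comes from a fit without pairs.

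Single genes had these values. Fosb had 23.7 ± 5.31 FPKM of NTD at 48 h and 5.32 ± 1.95 FPKM at 6 h (SD, n = 3 each), a log2 change of 2.17 ± 0.25 beside 2.44 ± 0.23 for Ser2p. Tet1 had 1.33 ± 0.0626 FPKM of NTD at 48 h and 4.47 ± 0.374 FPKM at 6 h (SD, n = 3 each), a log2 change of -1.73 ± 0.09 beside -1.38 ± 0.06 for Ser2p. For Tdgf1 the changes were -2.28 ± 0.26 in NTD and -1.40 ± 0.21 in Ser2p. The difference was 0.88 ± 0.39 (adjusted p = 0.99 by edgeR), from the fit without pairs of Ser2p and NTD libraries. The genes called lower in Ser2p had a median log2 change of -0.50 in Ser2p and -0.70 in NTD, and those called higher 0.45 and 0.50, but the genes were chosen on Ser2p, so these medians are a description. The 99th percentile of FPKM was 6.69 to 10.2 times the median in the Ser2p libraries and 12.5 to 21.2 times in the NTD libraries. Sizes of change may therefore not be on the same scale in any comparison of Ser2p with NTD here. The effect of this was not tested. At the promoters, within 1 kb of the start site, Ser5p at Jun averaged 195 ± 62.4 CPM (counts scaled to library size) at 48 h and 55.0 ± 6.05 CPM at 6 h (SD, n = 3 each), and at Tet1 15.8 ± 1.86 CPM at 48 h and 51.5 ± 6.49 CPM at 6 h (SD, n = 3 each).

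**Figure D5:**
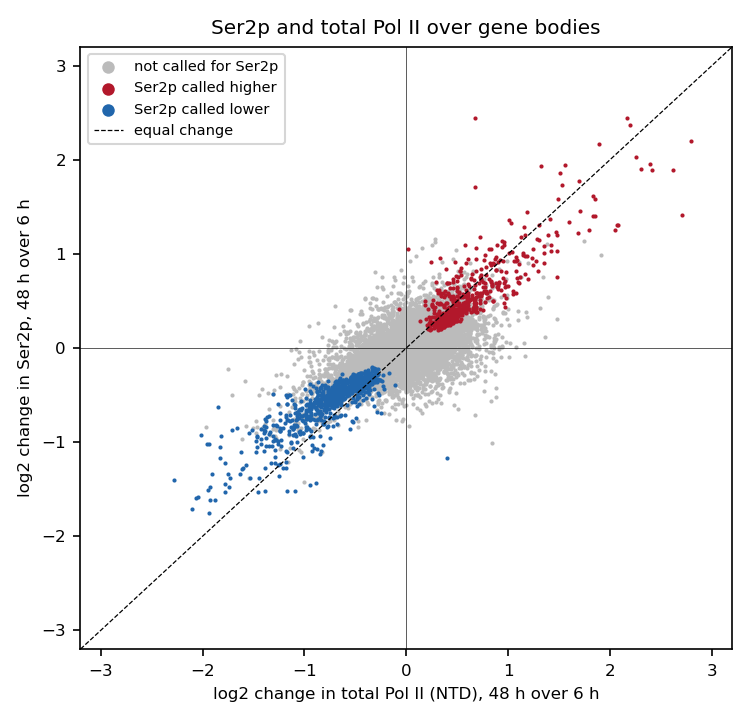
Log2 change, 48 h over 6 h, of total Pol II (x axis) and of Ser2p (y axis), with 1 point per gene tested in both. Genes called higher in Ser2p are red and those called lower blue, the dashed line marks equal change, and most blue points lie above it, with a median of -0.50 in Ser2p beside -0.70 in NTD. Strong genes stood less far above the median gene in the Ser2p libraries than in the NTD libraries, and the effect of this was not tested.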

How the data were processed

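The 3 Ser2p libraries at 48 h were compared with 3 at 6 h, grouped by the labels, with 3 NTD libraries at each time beside them. Builds mm10 and dm6 and the tools Bowtie2, SAMtools, MACS2 and DESeq2 are named, without versions, per the submitters' processing notes, and the counting tool is not given in the sources used here. The authors deposited raw read counts per RefSeq transcript over gene bodies, a normalized signal (the count times 1 factor per library, used as an alternative), FPKM values, and their own log2 fold changes and adjusted p-values for this contrast. A further 49 deposited columns were not used.

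The main test was edgeR's quasi-likelihood test (version 4.0.16, filterByExpr, then TMM) on the counts in R 4.3.3 with limma 3.58.1 and data.table (version 1.17.8), with DESeq2 1.42.0 as an alternative, on the 6 libraries alone. The common biological coefficient of variation was 0.0786 with 4 residual degrees of freedom. Ser2p minus NTD was the interaction of antibody and time in 12 libraries. The scripts were tested on simulated data. Figures used matplotlib 3.10.9 in Python 3.11.15. A gene is its transcript with the highest mean count. Of 33985 transcripts, 106 without a symbol (0.0169% of counts) stayed in the tests and out of gene counts, and 33556 matched RefSeq, which gave gene positions. After FPKM or CPM, ± is SD, and after a log2 change it is SE.

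Members, gene lists and alternatives were chosen with earlier results of these data known. Genes named are the 12 largest rises and falls (adjusted p below 0.05, mean of at least 5 CPM, every 48 h library beyond all 6 h libraries, no predicted gene), up to 4 called members per list and direction with the most abundant member, and 18 preset genes. Any other gene was named after its values were seen. The labels do not tie replicates to separate cultures. The p-values therefore reflect library to library spread only, possibly technical. Replicate numbers were not taken as pairs across the times, and the labels do not say what a number marks. Alternatives were other scalings, no filter, 1 transcript per symbol, a fold threshold, a replicate block, all times in 1 fit, each library left out and, chosen after seeing the data, a level-dependent scaling, an enrichment covariate and a block by antibody pair. Some genes that the rule names are not reported here.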

Additional observations from a re-analysis of the deposited data

How the results depend on the processing

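Counts of called transcripts are given as higher and lower. For Ser2p (867 and 1200), counts stayed within 1.5 times under edgeR's RLE scaling, the authors' scale factors, the library total, DESeq2, no filter and all times in the fit. With 1 transcript per symbol they were 638 and 758. The replicate block gave 3576 and 4282, the level-dependent scaling 3491 and 2915, the enrichment covariate 3783 and 3196 and the 1.5-fold threshold 266 and 413. For Ser2p and for NTD alone, the replicate block takes its contrast only from replicates 1 and 3, the numbers found at both times. Under it, 48 h replicate 2 and 6 h replicate 4 add nothing to the contrast. Leaving out 1 library gave 212 to 2880 higher and 269 to 3528 lower. Of the 2067 calls, 2040 were kept with the block, 2050 with the level-dependent scaling, 2067 without 48 h replicate 2, 522 without 48 h replicate 3 and 501 without 6 h replicate 1. The cause of these shifts was not tested. With 1 library left out, the group of 2 is assumed to vary like the other.

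For NTD (911 and 1880) the block gave 5585 and 6871, 1 transcript per symbol 576 and 1165, the level-dependent scaling 3250 and 3285 and the 1.5-fold threshold 434 and 1139. Leaving out 1 library gave 224 to 5692 higher and 517 to 6876 lower. For Ser2p minus NTD (0 and 0), DESeq2 gave 4 and 0, the level-dependent scaling 6 and 0, the replicate block 103 and 12, the replicate block by antibody pair 186 and 17, and leaving out 1 library 0 to 11 higher and 0 lower.

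The groups share replicate numbers 1 and 3 only, whose libraries deviated from their group means with correlations of -0.04 and -0.14, so the numbers were not taken as pairs. These correlations do not show that no culture or day was shared. Ser2p and NTD libraries of the same time and number correlated at 0.08 to 0.77. Of 109 called genes named by the rule, 51 kept their call in all 16 alternatives and 58 lost it in 1 to 7, with no change of sign. Of 33 that were not called, 23 were called in at least 1. With 3 libraries a group, a p that misses the threshold does not show that levels were the same.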

Other observations

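Host genes of small nucleolar RNAs, which guide the modification of ribosomal RNA, were looked at after their values were seen. Of 19 with the symbols Snhg, Gas5, Zfas1 or Dancr, 8 fell and none rose, with a median log2 change of -0.75. Over all genes tested, 3.6% fell and 2.61% rose. Gas5 had 5.66, 12.6 and 8.91 FPKM at 48 h against 19.2, 24.1 and 15.6 FPKM at 6 h (-1.11 ± 0.24, adjusted p = 0.0262 by edgeR), and Snhg1 5.86, 11.9 and 7.56 FPKM at 48 h against 17.7, 18.9 and 15.1 FPKM at 6 h (-1.03 ± 0.20, adjusted p = 0.0174). Of 73 genes of the small nucleolar RNAs themselves, 20 fell and none rose (median -0.85), but these regions lie inside host genes, ribosomal protein genes among them, and share their reads. Neither count was repeated with a library left out or with the level-dependent scaling, so how far they depend on single libraries is not known.

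Replication-dependent histone genes had a median log2 change of 0.32 with none of 61 called by edgeR and 1 called higher by DESeq2. Their summed level was 1094, 2232 and 1187 FPKM in 48 h replicates 1, 2 and 3, against 1129, 1604 and 1084 FPKM in the 6 h libraries. So 48 h replicate 2 alone lay above the 6 h range, and the median was -0.09 without it. With the level-dependent scaling 41 were called higher and none lower. These genes are short and occur in many near-identical copies, so their values are uncertain.

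In the fit without pairs of Ser2p and NTD libraries, the smallest p-values for a Ser2p change unlike that of NTD belonged to Xkr5 and Acp6. For Xkr5 the changes were -0.19 ± 0.08 in Ser2p and -0.94 ± 0.11 in NTD (difference 0.74, unadjusted p = 2.61e-05, adjusted p = 0.277 by edgeR). For Acp6 they were -0.87 ± 0.09 and -1.71 ± 0.12 (difference 0.83, adjusted p = 0.864 by edgeR).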
